A study of Mus musculus with 4 samples.

Results

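The genes described here encode elastin and other glycoproteins of the elastic fibre and of the adhesive matrix, in mammary gland and mammary tumors of mice with and without Sca-1. The set was defined by function as 10 genes: Eln, Fbn1, Fbln1, Fbln2, Fbln5, Fn1, Tnc, Postn, Sparc and Thbs1. Every probe set annotated to a single one of these symbols was taken, which gave 14 of the 22690 probe sets on the array and 9 of the 12394 named genes. No probe set was named for Fbn1 in the annotation used, and its expression is not analysed here. A further probe set that the annotation assigns to Thbs1 together with another gene was left out.

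RNA came from female, nulliparous mice of C57BL/6 background that lacked Sca-1, a membrane protein by which stem and progenitor cells are often sorted, and from wild-type, age-matched littermates. The 4 groups were mammary gland of wild-type mice at 6 weeks, mammary gland of Sca-1 knockout mice at 6 weeks, mammary tumor of wild-type mice and mammary tumor of Sca-1 knockout mice. The tumors followed a subcutaneous injection of 15 mg of MP, a depot progestin (Depo-Provera), and then DMBA, a polycyclic aromatic hydrocarbon carcinogen, which was given by gavage in cottonseed oil as 1 mg a week on 4 occasions. The protocol text is attached to every sample, but the glands' own labels name no carcinogen. The labels do not give the age of the tumor-bearing mice, and all mice were kept on standard chow. Each group was 1 array hybridised with RNA pooled from 5 mice, so no group had a replicate, no test was possible, and each difference below is a difference between single arrays. The spread between mice cannot be seen in pooled RNA.

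Elastic fibres are built from cross-linked elastin laid on a scaffold of fibrillin microfibrils, with fibulins guiding the assembly and lysyl oxidases making the cross-links. Fibronectin, tenascin C and periostin are adhesive or matricellular proteins of remodelling matrix, and SPARC and thrombospondin 1 modulate how cells bind to it. In mammary tissue these proteins come mainly from stromal cells, and several of them are known for high levels in tumor stroma and in wounds.

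Signals are linear intensities as deposited. Differences are on a log2(signal + 27.3) scale, where 27.3 is the lower quartile of all values, and a fold on this scale understates the difference of dim genes. A difference was counted where it was at least 2-fold, and a difference of differences where it was at least 4-fold. A gene entered the comparisons where its highest signal reached 168, the median over all values and arrays, which 8283 genes did, including all 9 measured genes of the set. A gene with several probe sets was represented by the one with the highest mean. The signal of a probe set cannot be set against that of another, so levels are compared between arrays only.

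The arrays differed in ways that touch these values. The lower quartile of the signals was 34.6 (wild type) and 44.2 (knockout) for the glands and 18.5 (wild type) and 17.9 (knockout) for the tumors. The beta-actin control probe sets at the 3' and 5' end of the transcript, whose ratio reflects RNA integrity, had ratios of 2.35, 1.61, 1.23 and 1.29 in the same order. The labelled tissues were checked against marker lists. A summed signal follows the brightest probe sets of its list, so it is compared between arrays only and is no measure of cell number. All 6 luminal epithelium markers were above the floor of 168 on all 4 arrays. The 5 measured white adipocyte markers were above it in both glands, and their summed signal was 34968 and 32833 for the glands and 3822 and 2695 for the tumors, wild type first. The 5 skeletal muscle markers summed to 30898 and 30298 in the glands and to 235 and 598 in the tumors, so the gland arrays also held RNA of muscle. In bulk tissue, fewer cells of a type and less RNA per cell cannot be told apart. Disagreement between probe sets was gauged from the 2 brightest probe sets of each of 2766 genes. The spread, taken from the median gap between their log2 differences, was 0.26 when genotypes were compared in the gland and 0.18 in the tumor. It was 0.51 and 0.48 when tumor was compared with gland within wild type and within knockout. Both probe sets were read on the same arrays, so this spread leaves out variation between arrays, RNA pools and mice.

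The genotype comparison in the tumors asks how the matrix of tumors that arose without Sca-1 differed. In the knockout tumor Tnc, Fn1 and Postn were at least 2-fold higher and Eln was 3.93-fold lower, while the fibulins and Sparc lay within 2-fold. Of the 9 genes, 3 were higher, 1 was lower and 5 lay within 2-fold. Among all 8283 genes 2.12% were higher and 1.94% were lower past 2-fold, 4.07% in either direction. The median log2 difference was 0.64 for the 9 genes and 0.01 for all genes.

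The genotype comparison in the glands asks what differed in tissue without a tumor. None of the 9 genes was past 2-fold in either direction, where 1.11% of all genes were higher and 0.254% were lower, 1.36% in either direction. The differences ran from -0.15 for Fbln5 to 0.75 for Thbs1. Of the 9 genes 6 were positive in sign, with a median of 0.28 against 0.01 over all genes. The gland median was 0.02 when the arrays were brought to a common median, a scaling that put the median of all genes at -0.23. With that scaling 43 genes were higher and 37 lower in the knockout gland, in place of 92 and 21. The 3' to 5' ratio and the lower quartile also differed between the gland arrays, and their part in the differences was not tested.

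**Figure D1:**
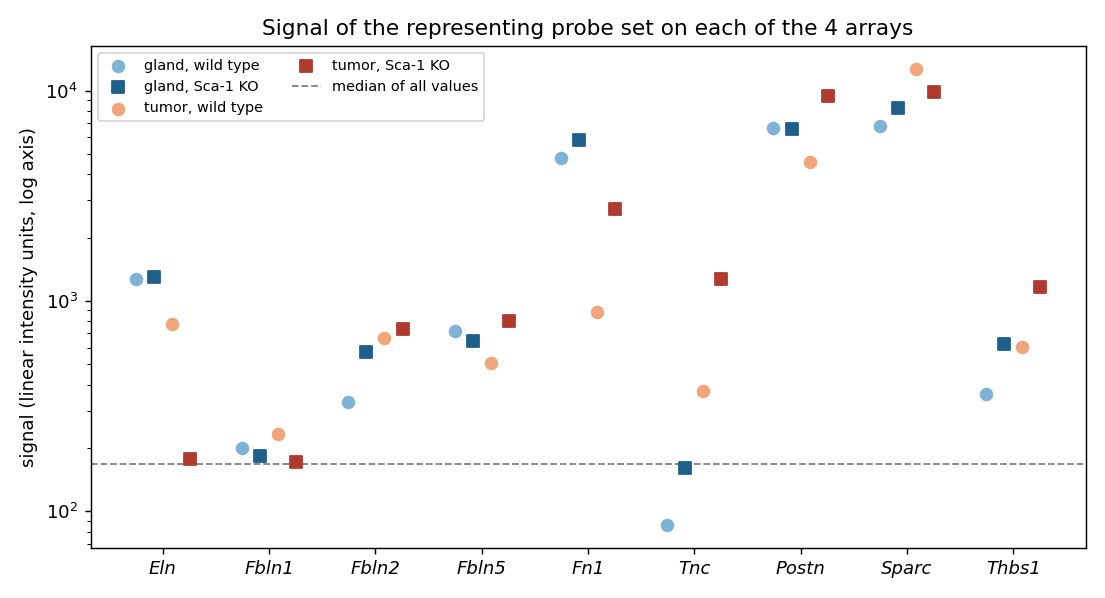
Signals of the probe set representing each gene, 1 point per array, on a log axis in linear intensity units, with circles for wild type, squares for Sca-1 knockout, blue for gland and red for tumor. Tnc ran from 86.1 in the wild-type gland to 1275 in the knockout tumor, and Eln dropped to 177 in the knockout tumor, close to the dashed line at the median of all values.

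**Figure D2:**
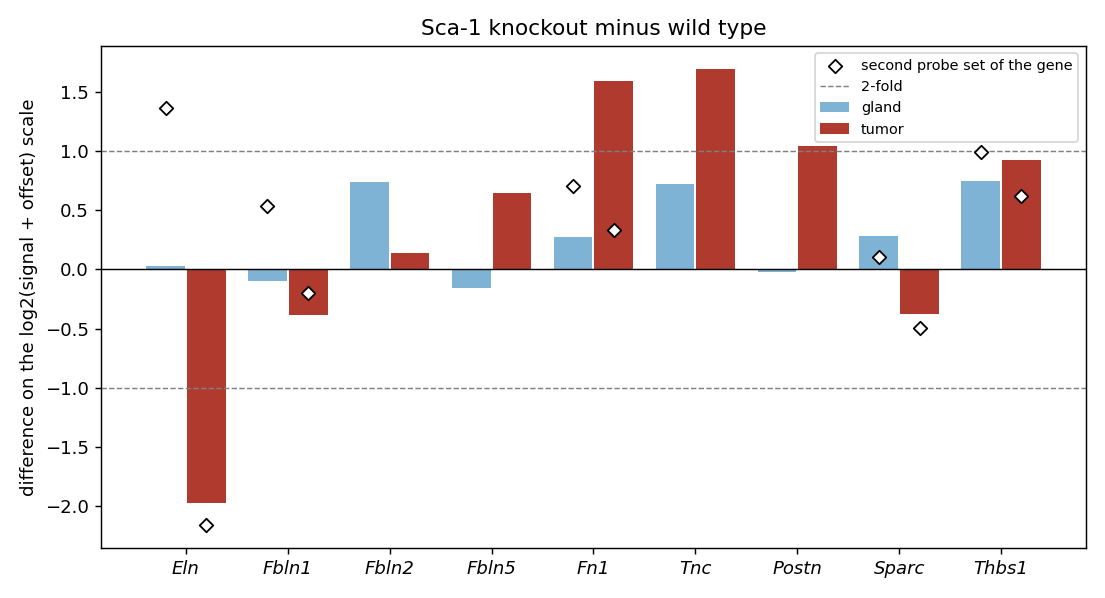
Log2 differences between Sca-1 knockout and wild type for each gene in gland (blue) and tumor (red), with diamonds for the second probe set of a gene and dashed lines at 2-fold. The tumor bars of Tnc, Fn1 and Postn are above the upper line and that of Eln is below the lower line, whereas no gland bar crosses a line.

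Elastin is the core of the elastic fibre and gives tissue its recoil. Eln had signals of 1266 (wild type) and 1292 (knockout) in gland, and of 777 (wild type) and 177 (knockout) in tumor. The knockout tumor was thus the low array, and the glands were nearly equal. The tumor difference of -1.97 was the 46th lowest of 8283 genes, and the gland difference was 0.03. The difference of differences was -2.00, or 4.01-fold, just past the threshold. It was the only one of the 9 genes past 4-fold, which 0.374% of all genes passed upward and 0.676% downward, 1.05% in either direction. The Eln value passed under 5 of 9 alternative settings, and the tumor difference stayed past 2-fold under all 9.

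A second Eln probe set, annotated to the same expressed sequence, was dim on every array and never reached the floor. Its signals were 26.5 and 111 for the glands and 125 and 6.8 for the tumors, wild type first. Its tumor difference of -2.16 had the same direction as that of the brighter one, whereas its gland difference was 1.36 against 0.03. The knockout gland array also had the highest lower quartile, so little can be read from the dim values in the gland.

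The 3 fibulins, calcium-binding glycoproteins that join elastin, fibrillin and basement membrane, lay within 2-fold between genotypes in both tissues. Fbln5, which binds elastin and cell surface integrins and is needed for elastic fibre assembly, had signals of 719 and 643 for the glands and 506 and 806 for the tumors, wild type first. The tumor difference of 0.64 was thus opposite in sign to that of Eln on the same arrays, and the gland difference was -0.15.

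Fbln2, a fibulin of basement membranes and of developing vessels, had signals of 332 and 571 in the glands and of 662 and 733 in the tumors, wild type first. It was 1.67-fold higher in the knockout gland, the 269th highest of 8283 genes, and differed by 0.14 in the tumor. The wild-type gland was the low array. Fbln1, a fibulin that binds fibronectin, was close to the floor throughout, with signals of 199 and 184 in the glands and 233 and 172 in the tumors. Its differences were -0.10 in the gland and -0.38 in the tumor, and a second probe set gave 0.53 and -0.20. The sign of the Fbln1 gland difference is therefore unsettled.

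Fibronectin is the adhesive glycoprotein through which cells grip and assemble new matrix. Fn1 had signals of 4775 (wild type) and 5789 (knockout) in gland, and of 889 (wild type) and 2738 (knockout) in tumor. The glands were high and the wild-type tumor was lowest. The knockout tumor was 3.02-fold above the wild-type tumor, the 43rd highest difference of 8283 genes, and the gland difference was 0.28. A second Fn1 probe set was dim, with 76.7 and 142 in the glands and 11.1 and 21.1 in the tumors, and its tumor difference was 0.33. With the mean of the probe sets in place of the brighter one, the tumor difference was 0.96, short of 2-fold.

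Tenascin C is a large, multi-armed glycoprotein that is scarce in resting adult tissue and is made in development, wounds and tumors. Tnc had signals of 86.1 (wild type) and 160 (knockout) in gland, and of 374 (wild type) and 1275 (knockout) in tumor. Both glands were below the floor of 168 and both tumors above it, and in each tissue the knockout was the higher array. The difference between genotypes was 1.70 in the tumor, 3.25-fold and the 34th highest of 8283 genes, and 0.72 in the gland, 1.65-fold. The gland difference was 0.37 with the median as offset. Its signals were dim and the knockout gland array had the highest lower quartile, so little can be read from it. The tumor difference was past 2-fold under all 9 alternative settings. Only 1 probe set stands for Tnc, so no second reading of the gene was at hand.

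Periostin is a matricellular protein that binds collagen, fibronectin and tenascin C and promotes collagen cross-linking. Postn had signals of 6658 (wild type) and 6560 (knockout) in gland, and of 4572 (wild type) and 9448 (knockout) in tumor. The glands were nearly equal, the wild-type tumor was below them and the knockout tumor above them. The tumor difference of 1.04, or 2.06-fold, was just past the threshold. It was 0.93, short of the threshold, under quantile normalization. The gland difference was -0.02, and its sign turned under cyclic loess, where it was 0.11.

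Tnc and Postn were the genes past 2-fold in the tumor for which a RefSeq promoter sequence was at hand. For that reason bases before some of their annotated starts are shown. The table had an entry for 7 of the 10 genes, with 11 starts in all, and lists 2 starts each for Tnc and Postn. Capitals mark matches to the letters searched on both strands, namely TATAAA and TATATAA, which can overlap, and GGGCGG. The 250 bases before the outer Postn start had no match and are not shown. The 30 bases shown for the inner Tnc start were chosen for their TATATAA match. The first Tnc line is the 250 bases before the outer start (GRCm38.p6, chr4:64047016-64047265, minus strand), the second Tnc line is a stretch of 30 bases (chr4:64046948-64046977, minus strand) that ends 11 bases short of the inner start, and the Postn line is the 250 bases before the inner start (chr3:54360857-54361106, plus strand), all written 5' to 3' along the gene.
Tnc outer start: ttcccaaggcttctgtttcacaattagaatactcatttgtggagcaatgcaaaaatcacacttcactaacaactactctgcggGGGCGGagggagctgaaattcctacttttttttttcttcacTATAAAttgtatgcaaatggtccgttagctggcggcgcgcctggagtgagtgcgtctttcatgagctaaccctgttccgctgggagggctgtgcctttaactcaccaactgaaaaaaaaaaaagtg
Tnc inner start: gaaggagctcccTATATAAgcctgccaaag
Postn inner start: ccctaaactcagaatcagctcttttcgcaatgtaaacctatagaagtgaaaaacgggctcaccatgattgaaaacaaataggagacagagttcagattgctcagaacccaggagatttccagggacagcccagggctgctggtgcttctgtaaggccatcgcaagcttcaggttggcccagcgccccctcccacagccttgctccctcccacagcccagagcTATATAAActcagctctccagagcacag

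The letters TATATAA begin 29 bases before the inner start of Tnc and 28 bases before the inner start of Postn. They occurred in 2 of the 11 windows of the set, those of Tnc and Postn, and in 3.04% of 32851 windows of 250 bases before annotated mouse gene starts. TATAAA occurred in 3 of the 11 windows and in 12.4% of all windows, and GGGCGG in 6 of the 11 and in 32.7%. TGANTCA and CATTCC, also searched, were in none of the 11 windows and in 6.75% and 12.6% of all windows. The 2 Tnc windows overlap, as do the 2 Fbln1 windows, so the TATAAA and the GGGCGG of Tnc are each counted in both Tnc windows. A match describes the letters only, and which start was used in these tissues was not measured.

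SPARC is a calcium- and collagen-binding matricellular protein of stromal cells. Sparc had signals of 6791 (wild type) and 8278 (knockout) in gland, and of 12693 (wild type) and 9787 (knockout) in tumor. The wild-type tumor was the highest array by this probe set. The genotype differences were 0.28 in the gland and -0.37 in the tumor, both within 2-fold. A second Sparc probe set, with 7167 and 7691 in the glands and 7054 and 4982 in the tumors, gave 0.10 and -0.50. The direction in the tumor was the same for both, whereas the wild-type tumor stood above the wild-type gland by 0.90 on the first and differed from it by -0.02 on the second.

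Thrombospondin 1 is a matricellular protein of platelets and stroma that inhibits vessel growth and activates latent TGF-beta. Thbs1 had signals of 359 (wild type) and 623 (knockout) in gland, and of 600.3 (wild type) and 1167 (knockout) in tumor. In each tissue the knockout array was the higher, by 0.75 in the gland and by 0.93 in the tumor, both short of 2-fold. A second probe set, at 118 and 263 in the glands and 187 and 301 in the tumors, gave 1.00 and 0.62. The gland value, 1.99-fold, was just short of the threshold. Of 5 platelet markers listed, 4 had a probe set and 2 reached the floor, and the 4 summed to 2439 and 2854 for the glands and to 645 and 658 for the tumors, wild type first. Between genotypes Pf4 and Itga2b differed by 0.24 and 0.12 in the gland and by -0.07 and 0.44 in the tumor, and both were past 2-fold lower in tumor than in gland. None of the 4 was listed at 0, and Gp9 was at or below the lower quartile on every array.

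Marker lists of other cell types also differed between the tumors. All 10 fibroblast markers were above the floor on all 4 arrays and none was at 0. In the tumor 9 of the 10 were lower in sign in the knockout, with a median of -0.58, and their summed signal was 26686 in wild type and 17099.9 in knockout. Of these Lum and Col1a1 were past 2-fold, at -1.15 and -1.17, and are named here after their values were seen. Thy1 went the other way, at 0.30. The sign of the list median was that of Eln and the opposite of that of Tnc, Fn1 and Postn, and a link between them was not tested. In the gland the same list summed to 39732 and 46718 with a median of 0.19.

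Smooth muscle and myoepithelial markers had a median of -0.43 in the tumor, and 2 of 6 were past 2-fold lower in the knockout, Myh11 at -1.38 and Cnn1 at -1.19. They summed to 29896 in wild-type and 22844 in knockout tumor, and none was at 0. Acta2 and Tagln in the same list differed by 0.06 and 0.01. Basal and keratinising epithelium markers summed to 13615 and 11920.4, and went both ways. Krt1 and Krt10 were past 2-fold lower at -4.56 and -3.05, the Krt1 signal in the knockout tumor being 11.7 and below the offset, while Krt5 and Krt14 differed by 0.26 and 0.27. Ivl of that list was at or below the lower quartile on every array. Dividing cell markers, 4 measured of 5, summed to 1874 and 4131 and were all higher in sign, 2 of them past 2-fold, Top2a at 1.16 and Bub1 at 1.67. In the glands the dividing cell markers were also all higher in sign in the knockout, with sums of 426 and 884 and a median of 0.91. None of the 4 reached the floor in the wild-type gland and 3 did in the knockout gland, so these gland values are dim.

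Of 5 macrophage markers above the floor 4 were lower in sign in the knockout tumor, with a median of -0.42, and all 6 macrophage markers summed to 12515 and 9306, wild type first. All 6 endothelial markers were lower in sign, with a median of -0.20 and sums of 1302 and 1095. All 5 skeletal muscle markers were higher in sign, with Acta1 at 1.28 and Myh4 at 1.35 past 2-fold, although Myh4 had signals of 0.6 and 44.0 and only Acta1 in the knockout tumor reached the floor. None of these markers was listed at 0. The part of these shifts in the matrix genes was not tested.

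The comparison of tumor with gland asks which of these genes differed between the tumor and gland arrays within each genotype. The tumors followed MP and DMBA, whereas the glands' own labels name no carcinogen, and the age of the tumor-bearing mice was not given. Tumor state, treatment and any difference in age therefore cannot be told apart in this comparison. In wild type Tnc was higher and Fn1 lower in the tumor, and in knockout Tnc was higher and Eln and Fn1 lower. Past 2-fold in wild type were 1 gene higher and 1 lower of 9, where 12.9% of all genes were higher and 16.6% lower, 29.4% in either direction. In knockout it was 1 higher and 2 lower, where 12.4% of all genes were higher and 17.9% lower, 30.2% in either direction. The share of the 9 genes past 2-fold was thus near or below that of all genes, and the medians were 0.20 and 0.31 against -0.03 and -0.04 over all genes.

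Tnc was 3.54-fold higher in the wild-type tumor than in the wild-type gland and 6.96-fold higher in knockout, where it was the 93rd highest of 8283 genes. Fn1 was 5.24-fold lower in the wild-type tumor, the 350th lowest difference, and 2.10-fold lower in the knockout tumor. The knockout value was -1.07 and shrank to -0.70, short of 2-fold, when the arrays were brought to a common median. That scaling moved the median of all genes to 0.12 in wild type and 0.34 in knockout. The second Fn1 probe set gave -1.44 in wild type and -1.81 in knockout, but it never reached the floor and its tumor signals were below the offset, so it adds little.

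Eln was 6.45-fold lower in the knockout tumor than in the knockout gland and differed by -0.68 in wild type. Its dim second probe set gave -2.02 in knockout and 1.50 in wild type, so the wild-type direction was not the same on both. Postn and Fbln5 were lower in tumor in wild type, at -0.54 and -0.48, and higher in knockout, at 0.52 and 0.31. These sizes are close to the spread between probe sets of 0.51 and 0.48, and each gene has 1 probe set. Fbln2 stood at 0.94 and 0.35 and Thbs1 at 0.70 and 0.88, wild type first, all within 2-fold.

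**Figure D3:**
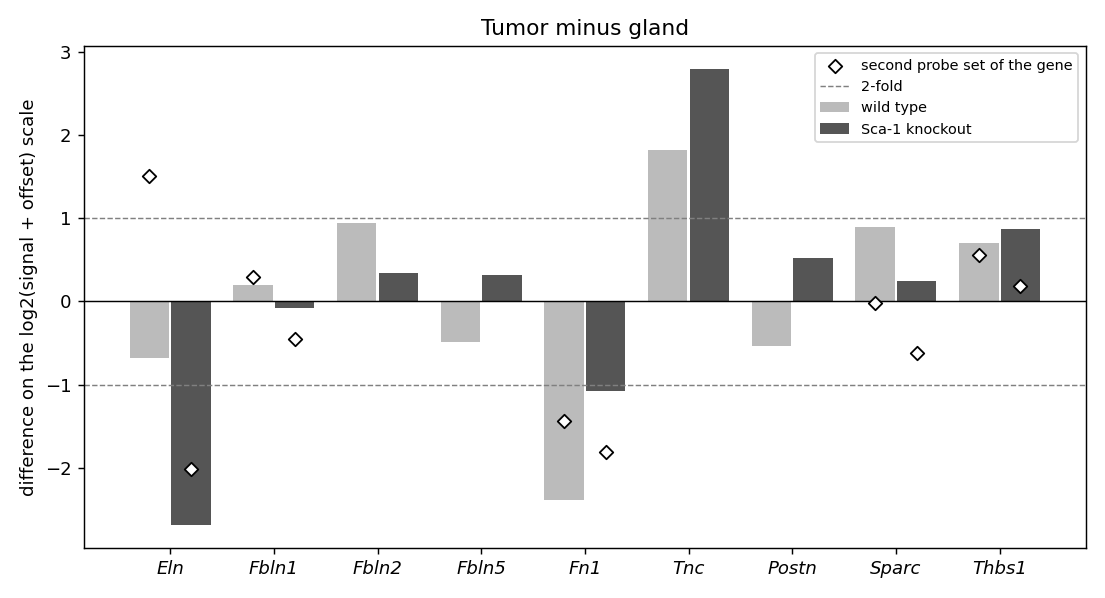
Log2 differences between tumor and gland for each gene in wild type (light grey) and Sca-1 knockout (dark grey), with diamonds for the second probe set of a gene and dashed lines at 2-fold. Tnc is above the upper line and Fn1 below the lower line in both genotypes, and Eln is below the line in knockout, at -2.69.

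The gland arrays held far more adipocyte and muscle RNA than the tumor arrays, as given above, and the summed fibroblast markers were also higher in the glands. Fibroblast markers had medians of -1.29 in wild type and -2.11 in knockout for tumor against gland, with 6 and 7 of 10 past 2-fold lower and none higher. Sparc, Postn, Fbln1, Fbln2, Fbln5 and Thbs1 stayed within 2-fold on the same arrays. The parts of tissue composition, treatment and age in the differences between tumor and gland were not tested.

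A wider list of 67 other genes of elastic fibres, adhesive and matricellular proteins and their receptors was described in the same way, of which 57 had a probe set and 44 were above the floor. In the tumor 2 of the 44 were higher in the knockout, 1 was lower and 41 were within 2-fold, and the median was -0.05, where 2.12% of all genes were higher and 1.94% lower. Those higher were Lox, the lysyl oxidase that cross-links elastin and collagen, and Efemp1, a fibulin. Lox had signals of 709 and 796 in the glands and 314 and 701 in the tumors, wild type first, and was 2.14-fold higher in the knockout tumor. Efemp1 had 4027 and 3234 in the glands and 105 and 259 in the tumors, and was 2.17-fold higher in the knockout tumor. The enzyme and the fibulin were higher on the array on which Eln was lower, but they were named for passing 2-fold. The 16 elastic fibre genes of the wider list above the floor went both ways in the tumor. Of these 8 were higher and 8 lower in sign in the knockout, with a median of -0.02.

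The gene that was lower was Sparcl1, the closest relative of Sparc in the list, with signals of 2314 and 2277 in the glands and 2012 and 827 in the tumors. It was 2.39-fold lower in the knockout tumor. In the glands none of the 44 was past 2-fold, where 1.36% of all genes were. The median was 0.23 against 0.01 over all genes, and 35 of the 44 were positive in sign, where 52.2% of all genes were. Under median centring, an alternative chosen for this list after seeing the data, the median was -0.02 and 22 were positive. That scaling put the median of all genes at -0.23. Of 14 receptor genes 8 were above the floor and none was past 2-fold in either genotype comparison. Itgav, the integrin alpha chain that binds fibronectin and periostin, had signals of 2746 and 2704 in the glands and 3957 and 3888 in the tumors.

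Between tumor and gland the wider list went both ways. In wild type 8 of the 44 were higher and 12 lower, and in knockout 7 were higher and 17 lower, against the shares of all genes given above. The 4 with the largest increases were the same in both genotypes. They were Ccn2, a matricellular growth factor modulator, at 6.55-fold in wild type and 5.56-fold in knockout, the syndecans Sdc1 and Sdc4, which are cell surface proteoglycans, and the matrilin Matn4. Sdc1 was 5.60-fold and 4.84-fold higher, Sdc4 3.71-fold and 2.90-fold, and Matn4 8.16-fold and 4.68-fold.

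The largest decreases in the wider list, in both genotypes, were those of Efemp1, of Tnxb, a tenascin of loose connective tissue, and of Cd36, a receptor for thrombospondin and fatty acids. Efemp1 was 30.8-fold lower in tumor than in gland in wild type and 11.4-fold lower in knockout, Tnxb 16.4-fold and 11.6-fold, and Cd36 15.7-fold and 26.5-fold. Mfap5, a microfibril glycoprotein, was 4.95-fold and 4.61-fold lower. Vtn, the adhesive glycoprotein vitronectin, was 5.43-fold lower in knockout, with signals of 353 in gland and 42.6 in tumor, and differed by -0.69 in wild type. Among tenascins, Tnc and Tnxb thus went opposite ways between gland and tumor in both genotypes.

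**Figure D4:**
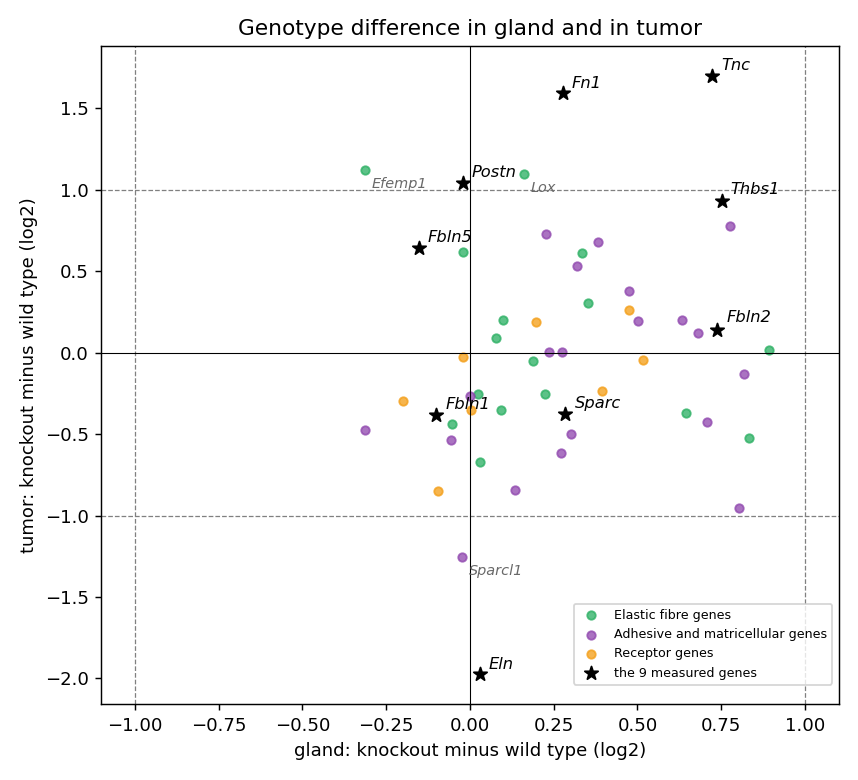
Genotype difference in the gland (horizontal axis, log2) against that in the tumor (vertical axis, log2), with stars for the 9 measured genes and dots for the 44 genes of the wider list above the floor, and dashed lines at 2-fold. Tnc and Fn1 are the uppermost points and Eln the lowest, and no point lies past 2-fold in the gland.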

How the data were processed

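RNA of 4 groups, each pooled from 5 mice, was measured on 1 Affymetrix array per group, per the labels' protocols. The deposited intensity values are linear signals, 1 per probe set. The software behind these values was not given in the sources used here. When the top and bottom 2% of signals were dropped, the mean of every array lay between 500.1 and 500.2, so the deposited intensities had been scaled alike. Probe sets were named by the platform annotation, and 20364 symbols were updated by gene identifier. Of the probe sets 20393 had 1 symbol, 691 several and 1606 were not listed.

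Computations used Python 3.11.15 with numpy 2.4.6 and pandas 2.3.3, and limma 3.58.1 in R 4.3.3 for cyclic loess. The code was run on simulated data with equal noise on every array and added differences well past the 2-fold threshold. That run checks the code only. It had no shifts between arrays, so it cannot show how reliable differences near the threshold are. The genes, the lists and the rule for named genes (all 10 members, and the 4 largest increases and decreases past 2-fold of the wider list in each comparison) were chosen with earlier results of these data known. Alternatives were offsets of 1 and of the median, median centring, quantile normalization, cyclic loess, a floor on the mean, no floor, the mean of all probe sets, and leaving out probe sets ending in _s_at or _x_at. The number of arrays limits the precision.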

Additional observations from a re-analysis of the deposited data

Results flagged for a closer look

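Some differences had opposite signs in the 2 tissues or the 2 genotypes, and these contrasts between them were not tested. The genotype difference of Eln was 0.03 in gland and -1.97 in tumor, with -0.15 and 0.64 for Fbln5, -0.02 and 1.04 for Postn, and 0.28 and -0.37 for Sparc. Tumor against gland was 0.20 in wild type and -0.08 in knockout for Fbln1, -0.48 and 0.31 for Fbln5, and -0.54 and 0.52 for Postn. The gland values of Eln and Postn and the knockout value of Fbln1 turned sign under 1 or more alternatives.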

How the results depend on the processing

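No paired analysis was possible because each group had 1 array. In the tumors, 3 genes higher became 2 under quantile normalization, which lost Postn, and with the mean of all probe sets, which lost Fn1, and the 1 gene lower was so under all 9 alternatives. The difference of differences had 1 gene past 4-fold lower, Eln, and 0 under the median offset, median centring, quantile normalization and cyclic loess. Median centring moved the gland median of the 9 genes from 0.277 to 0.0185. It also gave 3 genes higher in tumor than gland in wild type in place of 1, by adding Fbln2 at 1.08 and Sparc at 1.04, and 2 higher and 1 lower in knockout in place of 1 and 2, by adding Thbs1 at 1.24 and losing Fn1. This scaling multiplies all signals of an array by 1 factor. It moved the median of all genes for tumor against gland to 0.12 in wild type and 0.34 in knockout. Why the array medians differed was not tested. No past-threshold value of a gene of the set turned sign. Over all genes, the alternatives gave 20 to 181 higher and 8 to 40 lower in the knockout gland (92 and 21 as reported), and 62 to 281 higher and 77 to 223 lower in the knockout tumor (176 and 161). Tumor against gland ranged from 671 to 1302 higher and 813 to 1948 lower in wild type, and from 662 to 1753 and 908 to 2286 in knockout. The difference of differences ranged from 13 to 63 higher and 15 to 96 lower. The alternatives compared from 7225 genes (floor on the mean) to 12394 (no floor), so these ranges also reflect the number of genes. The counts of 1948 and 2286 lower were those with no floor. Dim probe sets, such as the second ones of Eln and Fn1, limit the reading of low signals.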
